A study of Mus musculus with 4 samples.

Results

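The genes that encode subunits of the transcription factor AP-1 were followed across glia, vessel cells and neurons of the mouse posterior hindbrain. They are 7 of the 32285 genes counted (*Fos*, *Fosb*, *Fosl2*, *Jun*, *Junb*, *Jund* and *Atf3*), taken by name from the family. They were selected on their levels and group differences in these same nuclei, so the values below describe these libraries and are no independent evidence about the family. Relative to all UMIs of a type, *Jun* was higher in each well-sampled non-neuronal type than in neurons, and tanycyte-like cells had the highest *Fos* and *Jun*. *Fos* and *Junb* were far higher in 1 of the 4 libraries than in the other 3 in tanycyte-like cells, ependymal cells and astrocytes, but not in neurons.

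AP-1 is a dimer of basic leucine zipper proteins that binds short palindromic DNA elements near its target genes. Fos proteins cannot pair with themselves and need a Jun partner, whereas Jun proteins can form dimers alone or with Fos and ATF proteins. Transcription of *Fos*, *Fosb*, *Junb* and *Atf3* is known to start within minutes of a stimulus without new protein synthesis, which is why *Fos* serves as a mark of recent activity in neurons, and glia and vessel cells use the same genes in their responses to growth factors, injury and stress.

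All libraries came from mice given clozapine N-oxide (CNO, the ligand of the engineered receptors hM3DGq and hM4DGi) at 3 mg per kg by intraperitoneal injection, without food, 1 h before dissection of a hindbrain block with the area postrema and the nucleus of the solitary tract. The 2 AgRP-Gq;POMC-Gi libraries came from mice with 1 copy of AgRP-IRES-Cre (+/-) and of POMC-Dre (+/-), in which Cre-expressing AgRP neurons carry the activating and Dre-expressing POMC neurons the inhibitory receptor. The 2 control libraries, labelled WT, lacked both recombinases (-/-), but by the methods all offspring of the breeding carried hM3DGq fl/- and hM4DGi fl/-, so both groups share the silent receptor alleles and the CNO. The receptors are driven by the CAG promoter from the Rosa26 locus once a stop is removed, and whether any cell of the hindbrain block itself carried a receptor was not tested here. Mice were on a C57BL/6 background, 12 to 20 weeks old and of both sexes, and tissue of a condition was pooled (2 mice per group) without a statement of which animal went into which library. The library was therefore the unit of replication (n = 2 per group), and p-values measure the spread between libraries, which may be partly technical. In a design of 2 against 2 an exact permutation test cannot give a two-sided p below 0.333.

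The libraries held 9723 to 10051 kept nuclei and 48904976 to 53089402 UMIs each, with a median of 3211 to 3502 UMIs per nucleus, and pairs of libraries shared 19 to 36 cell barcodes. Cell types were the authors', from clusters built without immediate early genes. Of the 4 to 6 markers listed for each type, at least 4 were highest in the type they mark in 12 types, 3 of 5 in astrocytes and 2 of 5 in tanycyte-like cells, whose markers *Col23a1*, *Rax*, *Vim*, *Nes* and *Crym* summed to 426 UMIs per 1000000 (CPM) against 402 in fibroblasts, so that name rests on the authors' label. Libraries differed in other ways as well. Neurons made up 25.4% and 27.2% of the control nuclei and 38.0% and 36.5% of the AgRP-Gq;POMC-Gi nuclei. Choroid plexus nuclei numbered 2, 436, 6 and 329 in control 1, control 2, AgRP-Gq;POMC-Gi 1 and AgRP-Gq;POMC-Gi 2, the order used for all values below, and choroid plexus markers summed to 4.76, 2713, 18.8 and 1653 CPM in astrocytes. *Xist*, the RNA of the inactive X chromosome, stood at 507, 319, 541 and 16.2 CPM in neurons and was far lower in AgRP-Gq;POMC-Gi 2. That library was the lowest in every cell type, with at most 48.2 CPM, in astrocytes. A difference between the 2 AgRP-Gq;POMC-Gi libraries therefore cannot be told apart from a difference in the sex of the animals. The part of these features in the differences below was not tested.

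The members lie on 6 chromosomes of GRCm38 in GENCODE M21. *Fos* lies at chr12:85473890-85477273, *Fosb* at chr7:19302696-19310051, *Fosl2* at chr5:32135801-32157842, *Jun* at chr4:95049034-95052222, *Junb* at chr8:84974484-84978718, *Jund* at chr8:70698949-70700616 and *Atf3* at chr1:191170296-191218039. *Jun* and *Jund* have a single annotated transcript with 1 exon each, so their UMIs cannot be assigned to spliced or unspliced RNA, whereas *Fos* transcripts have 3 or 4 exons and *Atf3* transcripts 4 or 5. The RefSeq starts of *Atf3*, *Fosl2* and *Fosb* lie inside the annotated gene and those of *Jund* and *Junb* before it. The 250 bases before the RefSeq start (GRCm38.p6) of 4 members are printed. They were chosen because *Fos*, *Junb* and *Atf3* were high together in AgRP-Gq;POMC-Gi 1 in tanycyte-like and ependymal cells. *Jun* differed less: it was highest in that library in tanycyte-like cells (184, 200, 248 and 135 CPM) but not in ependymal cells. Capitals mark the CRE core TGACG on either strand, the TATA box TATAAA and the site TGACATCA, which overlap nowhere in these sequences.
Fos, chr12:85473640-85473889, plus strand: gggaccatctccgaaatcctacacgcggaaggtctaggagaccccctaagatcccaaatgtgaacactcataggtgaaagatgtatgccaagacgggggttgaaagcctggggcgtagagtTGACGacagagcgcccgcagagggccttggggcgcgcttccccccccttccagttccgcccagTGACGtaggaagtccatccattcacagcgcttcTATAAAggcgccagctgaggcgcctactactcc
Junb, chr8:84978749-84978998, minus strand: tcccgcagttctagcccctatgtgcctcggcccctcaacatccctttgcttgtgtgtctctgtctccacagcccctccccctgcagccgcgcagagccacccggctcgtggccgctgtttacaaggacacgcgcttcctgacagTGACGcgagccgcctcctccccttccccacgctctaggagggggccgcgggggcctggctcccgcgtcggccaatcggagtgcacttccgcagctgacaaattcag
Atf3, chr1:191183334-191183583, minus strand: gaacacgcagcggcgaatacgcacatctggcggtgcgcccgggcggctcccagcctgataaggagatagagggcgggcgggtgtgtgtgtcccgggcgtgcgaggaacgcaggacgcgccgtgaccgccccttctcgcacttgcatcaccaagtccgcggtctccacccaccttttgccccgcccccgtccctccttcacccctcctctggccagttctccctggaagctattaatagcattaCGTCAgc
Jun, chr4:95052223-95052472, minus strand: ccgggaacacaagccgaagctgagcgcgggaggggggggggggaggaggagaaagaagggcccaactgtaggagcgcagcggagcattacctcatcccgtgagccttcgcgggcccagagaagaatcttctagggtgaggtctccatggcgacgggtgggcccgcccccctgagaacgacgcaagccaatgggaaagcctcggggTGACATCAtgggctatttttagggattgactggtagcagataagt
The core TGACG, the part of the cAMP response element that CREB and ATF proteins contact, was found in 4 of the 7 members, *Fos*, *Fosb*, *Junb* and *Atf3*, and in 17.8% of all 32851 windows of this length. *Fos* held it at 129 to 125 and at 66 to 62 bases before the start, *Junb* at 106 to 102, *Fosb* at 60 to 56 and *Atf3* at 7 to 3. The full element TGACGTCA was in none of the 7 and in 1.55% of windows. The pattern TGANTCA, with any base at N and so wider than the AP-1 site TGA(C/G)TCA, was in none of the 7 and in 6.75% of windows. TGACATCA was found only in *Jun* among the members, 45 to 38 bases before the start, and in 2.93% of windows, and TATAAA only in *Fos*, 33 to 28 bases before the start, and in 12.4% of windows. These are matches of letters within a fixed window. The window of *Jund*, chr8:70697489-70697738, does not reach the annotated start of the gene at 70698949. Its lack of these motifs thus does not cover the bases next to that start.

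Levels are given as CPM, the UMIs of a gene divided by all UMIs of the nuclei of a type in a library, and as mean ± SD of the 4 libraries. The order of levels is given among the 10 types with at least 20 nuclei in each library, which leaves out the choroid plexus, Oligodendrocytes/OPC and the F13a1 and Ms4a4b immune types. In bulk sums of this kind, fewer cells that carry a transcript and less of it per cell cannot be told apart. *Fos*, the subunit most used as an activity mark, was highest in tanycyte-like cells. Its level there was 82.0 and 37.5 CPM in the control libraries and 539 and 95.0 CPM in the AgRP-Gq;POMC-Gi libraries (188 ± 235, n = 4). All 4 values lay above those of every other ranked type in the same library. Ependymal cells followed with 25.7 ± 43.4 CPM and astrocytes with 13.3 ± 16.3 CPM, both with an SD above the mean because AgRP-Gq;POMC-Gi 1 was far above the rest. Without that library their means were 4.05 and 5.16 CPM, below neurons at 6.38 CPM. Mural cells (7.94 ± 4.08), endothelial cells (7.43 ± 1.30), fibroblasts (6.93 ± 5.00), neurons (6.10 ± 1.47) and microglia (the Tmem119 immune type, 4.41 ± 3.55) lay close together, and no neighbours in this order differed in the same direction in all 4 libraries. Of these types endothelial cells were above neurons in 4 of 4 libraries, but on only 3, 3, 1 and 3 UMIs. Oligodendrocytes had the lowest mean of the ranked types, 1.81 ± 0.82 CPM, and precursor cells (OPC) had 2.17 ± 1.70 CPM. *Fos* was thus no neuron-specific transcript in these nuclei, and the tanycyte-like mean was 30.9 times that of neurons, or 11.2 times without AgRP-Gq;POMC-Gi 1.

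*Fosl2*, which encodes the Fos-related protein Fra-2, was highest among the ranked types in tanycyte-like, endothelial and fibroblast nuclei. Tanycyte-like cells had 41.0, 62.5, 87.4 and 21.5 CPM and endothelial cells 27.3, 16.3, 23.3 and 46.6 CPM. Tanycyte-like cells were the higher type in 3 of 4 libraries, all but AgRP-Gq;POMC-Gi 2. Fibroblasts (16.2 ± 12.6) and microglia (7.23 ± 0.52) came next, and neurons had 2.14 ± 0.84 CPM. In oligodendrocytes it was nearly missing at 0.27 ± 0.12 CPM, and no UMI was found in 784 OPC nuclei, which allows a share of up to 0.383% with a UMI (3 nuclei of the total) and sets no limit on the share that express the gene. *Fosb*, known for the long-lived splice form ΔFosB, was scarce, with at most 8 UMIs over all libraries in each type but neurons; its highest mean, 9.85 ± 13.7 CPM in tanycyte-like cells, rested on 7 UMIs. Neurons held most of its UMIs, 20, 20, 40 and 38, which is 0.74, 0.73, 1.12 and 1.08 CPM. Both AgRP-Gq;POMC-Gi libraries were above both control libraries there, by little.

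*Jun*, the subunit activated by JNK and able to pair with itself, had its 2 highest levels in tanycyte-like and endothelial cells. Tanycyte-like cells had 184, 200, 248 and 135 CPM and endothelial cells 136, 93.0, 128 and 204 CPM. The types overlapped, but endothelial cells were above OPC, the next type (49.9 ± 20.2), in 4 of 4 libraries. Fibroblasts, microglia, ependymal and mural cells lay between 31.8 and 38.9 CPM on average and no neighbours among them kept their order in all 4 libraries. Oligodendrocytes (29.3 ± 7.96) were above astrocytes (21.7 ± 10.7) in 4 of 4 libraries, and astrocytes were above neurons (9.70 ± 1.08) in 4 of 4. Neurons were thus at the bottom of the order for *Jun*, and every other ranked type was above them in each library.

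*Junb*, an early-response Jun subunit that can hold back Jun, was highest in microglia and tanycyte-like cells. Microglia had 47.97, 68.5, 158 and 89.8 CPM (91.1 ± 47.8) and tanycyte-like cells 41.0, 25.0, 238 and 55.2 CPM (89.8 ± 99.6). Their means were alike but tanycyte-like cells were above microglia only in AgRP-Gq;POMC-Gi 1, and without that library microglia led. Endothelial cells followed with 70.9 ± 28.8 CPM, above ependymal cells in 4 of 4 libraries, and neurons, at 9.23 ± 1.29 CPM, were above astrocytes in 3 of 4, OPC and oligodendrocytes ranking lowest at 3.63 ± 3.31 and 2.37 ± 0.31 CPM. *Junb* was therefore low in the oligodendrocyte lineage, in which *Jun* was not.

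*Jund*, the Jun subunit known for steady expression in resting cells, had the narrowest range over cell types relative to neurons. Its means ran from 20.3 ± 3.38 CPM in neurons and 26.9 ± 4.86 CPM in astrocytes to 123 ± 45.9 CPM in endothelial cells, and the largest fold over neurons was 6.09, against 30.9 for *Fos* (6.14 against 11.2 without AgRP-Gq;POMC-Gi 1). Endothelial cells had 128, 86.0, 93.2 and 187 CPM, tanycyte-like cells 61.5, 162, 82.6 and 98.1 CPM and ependymal cells 78.1, 110, 82.4 and 91.3 CPM. These types overlapped. Oligodendrocytes had 47.3, 51.9, 45.9 and 59.3 CPM, above neurons in 4 of 4 libraries.

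*Atf3*, a stress-induced member of the ATF family that can repress as a homodimer, was close to absent in neurons, astrocytes, oligodendrocytes and OPC. It stood at 0.36 ± 0.19 CPM in neurons, 0.39 ± 0.19 in astrocytes and 0.23 ± 0.10 in oligodendrocytes, with 0 UMIs in 784 OPC nuclei. In tanycyte-like cells the values were 0, 0, 165 and 24.5 CPM, in endothelial cells 2.73, 2.33, 5.82 and 35.0 CPM and in ependymal cells 0, 4.98, 28.8 and 8.69 CPM. The ranked type with the highest mean was tanycyte-like cells, and without AgRP-Gq;POMC-Gi 1 it was endothelial cells. The plot of levels by cell type shows the 4 libraries of each member side by side.

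**Figure D1:**
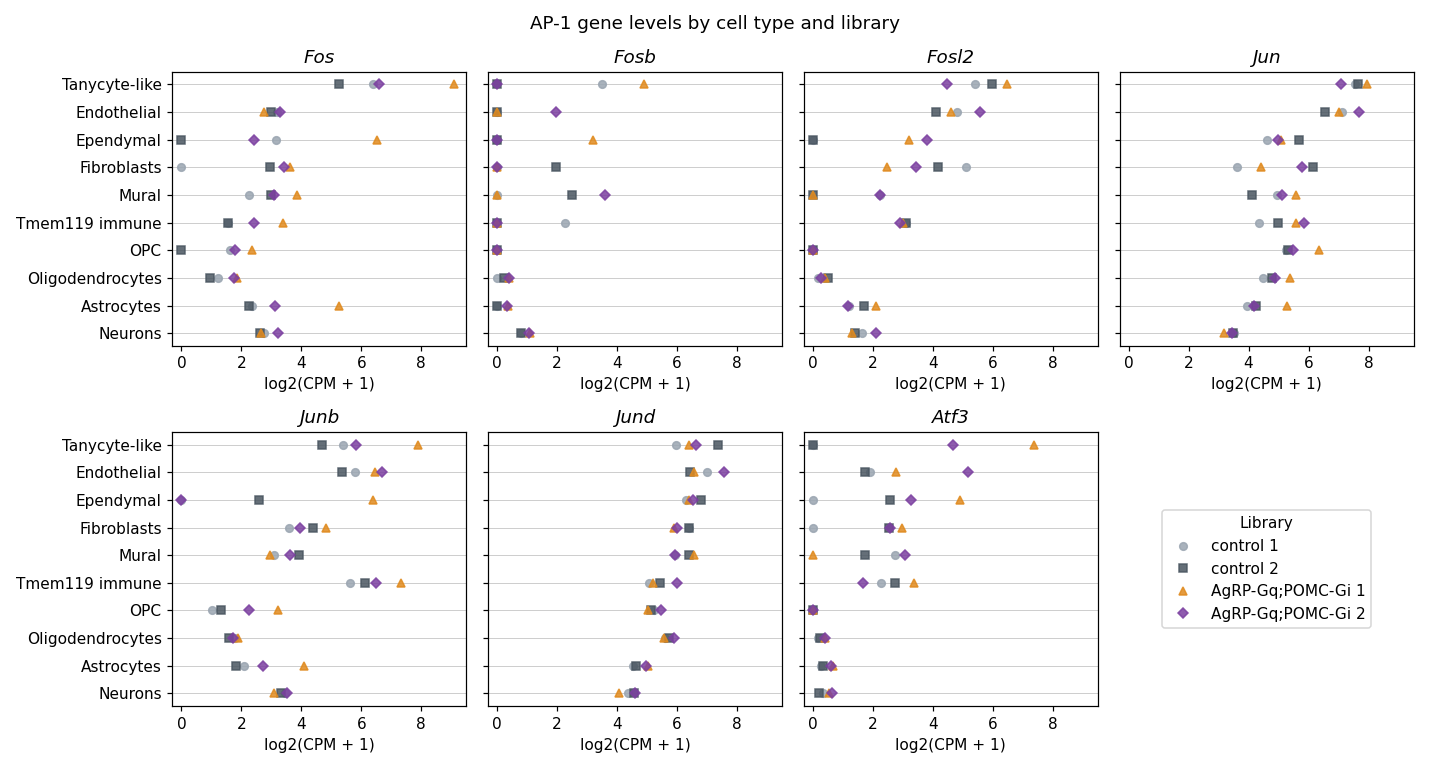
Level of each AP-1 gene as log2(CPM + 1) on the horizontal axis in the 10 cell types with at least 20 nuclei in each library; each symbol is 1 library. Neurons lie at the lowest level for *Jun* and *Jund*, and the triangle of AgRP-Gq;POMC-Gi 1 lies far to the right of the others for *Fos* and *Junb* in tanycyte-like cells, ependymal cells and astrocytes.

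The share of nuclei with at least 1 UMI depends on depth, and neurons were the deepest type, with a median of 8704 UMIs against 3198 in tanycyte-like and 1460 in endothelial cells. Intervals are exact 95% Clopper-Pearson intervals and cover counting error only. A *Fos* UMI was found in 58 of 202 tanycyte-like nuclei (28.7%, 22.6 to 35.5), in 530 of 12539 neurons (4.23%, 3.88 to 4.59), in 115 of 4378 astrocytes (2.63%, 2.17 to 3.14) and in 74 of 16816 oligodendrocytes (0.44%, 0.346 to 0.552). The lowest share among types with a UMI was in the choroid plexus, 2 of 773 nuclei (0.259%, 0.0313 to 0.931), at a median of 4291 UMIs, so the tanycyte-like, neuronal and pooled astrocyte shares lie above that level and the oligodendrocyte share within its interval. The astrocyte share by library was 1.45%, 0.923%, 6.24% and 2.09%, of which that of control 2 lay within the interval. With 2, 436, 6 and 329 choroid plexus nuclei, this level was hardly measured in control 1 and AgRP-Gq;POMC-Gi 1. After each nucleus had been thinned to 800 UMIs the shares were 15.3% in tanycyte-like cells, 1.91% in ependymal cells, 1.005% in astrocytes, 0.518% in neurons and 0.167% in oligodendrocytes. The place of ependymal cells and astrocytes above neurons at equal depth rested on AgRP-Gq;POMC-Gi 1. Without it the thinned shares were 5.19% in tanycyte-like cells (7 of 135 nuclei), 0.577% in neurons (51 of 8843), 0.360% in astrocytes (12 of 3336) and 0 of 224 in ependymal cells, and by CPM astrocytes were above neurons in 1 of 4 libraries.

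For *Jun*, a UMI was found in 74 of 202 tanycyte-like nuclei (36.6%, 30.0 to 43.7) and 143 of 789 endothelial nuclei (18.1%, 15.5 to 21.0). It was also found in 1054 neurons (8.41%, 7.93 to 8.91) and 296 astrocytes (6.76%, 6.04 to 7.55). The thinned shares were 10.4%, 9.76%, 0.957% and 1.71%, in this order of types. Before thinning the neuronal share was above that of astrocytes, oligodendrocytes (6.93%), microglia (6.71%) and mural cells (3.85%), and after thinning it was below theirs. *Jund* was detected in 2152 neurons (17.2%, 16.5 to 17.8) and 138 endothelial nuclei (17.5%, 14.9 to 20.3), but in 1.70% and 10.4% after thinning. *Junb* UMIs were found in 145 of 969 microglia (15.0%, 12.8 to 17.4) and 902 neurons (7.19%, 6.75 to 7.66), with thinned shares of 7.12% and 0.877%. The equal shares of *Jund* in neurons and endothelial cells thus came with unequal depth.

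The neurons were not uniform. Over the 134 neuronal clusters the mean *Fos* level ran from 0 to 38.8 CPM with a median of 4.37 CPM, and none was above tanycyte-like cells, while 38 were above the endothelial mean. Mean *Jun* ran from 0 to 31.7 CPM (median 8.77) and *Junb* from 0 to 31.9 CPM (median 8.06), and no cluster was above the endothelial mean of either. *Jund* reached 156 CPM in cluster 177, the 1 cluster above the endothelial and the tanycyte-like mean, against a median of 19.7 CPM. Among the 50 non-neuronal clusters, *Jun* was highest in tanycyte-like cluster 61 (224 CPM) and endothelial cluster 32 (218 CPM), *Jund* in the same endothelial cluster 32 (196 CPM), and *Junb* in endothelial cluster 106 (118 CPM).

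Differences between AgRP-Gq;POMC-Gi and control libraries were assessed by the quasi-likelihood test of edgeR on UMIs summed per library and type, over genes with at least 20 UMIs in all, in the 13 types with 5 nuclei in each library; the choroid plexus was left out by this rule. Of 91 possible pairs of a member and a type, 43 were tested. None passed an adjusted p of 0.05 (Benjamini-Hochberg; smallest 0.149 for *Fos* in astrocytes), nor did any of the 37 pairs to which DESeq2 gave an adjusted p, at a background of 0.0957% of all genes and types called by edgeR. The 6 pairs without an adjusted p from DESeq2 included *Fos* and *Junb* in astrocytes and in oligodendrocytes. At an unadjusted p under 0.05, 16 pairs were higher in AgRP-Gq;POMC-Gi and 0 lower with edgeR (backgrounds 2.78% and 2.92%), and 8 were higher and 0 lower with DESeq2 (backgrounds 0.94% and 0.995%). In 16 pairs both AgRP-Gq;POMC-Gi libraries were above both control libraries (background 14.3%), in 3 pairs both were below (background 20.3%), and in 22 pairs AgRP-Gq;POMC-Gi 1 was the highest of the 4 libraries (background 19.6%). The log2 fold change was above 0 in 35 of 43 pairs, in 32 without TMM factors, which moved the median of all genes in a type by up to 0.162 and put 1 pair lower at an unadjusted p under 0.05, and in 29 without AgRP-Gq;POMC-Gi 1. Its median over the 43 pairs was 0.49, against -0.00 over all genes and types, and 0.24 without AgRP-Gq;POMC-Gi 1. Since the members were chosen with these differences known, the counts are given beside their backgrounds as a description only.

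**Figure D2:**
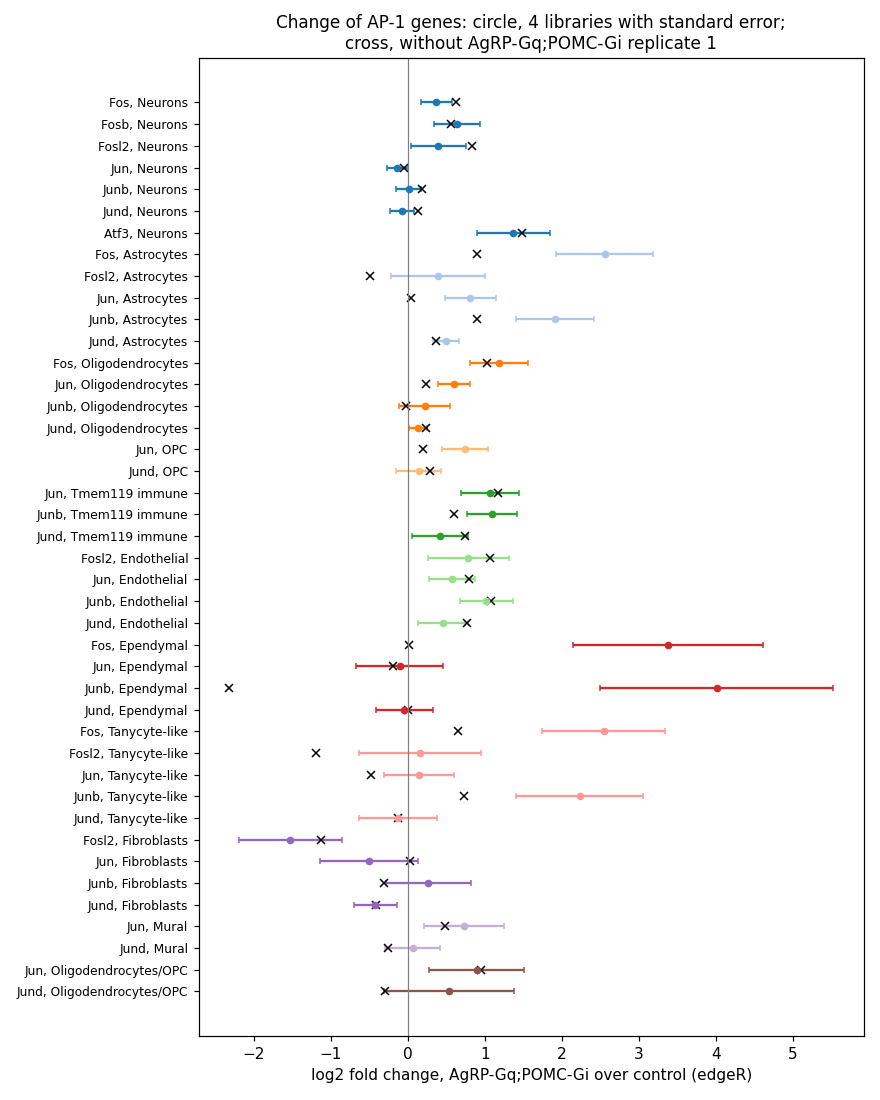
Log2 fold change of AgRP-Gq;POMC-Gi over control for the tested pairs of an AP-1 gene and a cell type, from edgeR; circles with bars give the estimate and its standard error over 4 libraries and crosses the estimate without AgRP-Gq;POMC-Gi replicate 1. *Atf3* in tanycyte-like cells is left out because both control libraries had 0 UMIs; the crosses of *Fos* and *Junb* lie far to the left of the circles in astrocytes, ependymal and tanycyte-like cells.

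In tanycyte-like cells, *Fos*, *Junb* and *Atf3* were high in AgRP-Gq;POMC-Gi 1. For *Fos*, 8, 3, 111 and 31 UMIs were found in 4 of 26, 3 of 26, 38 of 67 and 13 of 83 nuclei, which is 15.4% (4.36 to 34.9), 11.5% (2.45 to 30.2), 56.7% (44.0 to 68.8) and 15.7% (8.61 to 25.3). AgRP-Gq;POMC-Gi 1 had the highest share. The intervals count nuclei of 1 library and are no measure of the spread between libraries. AgRP-Gq;POMC-Gi 2 lay close to the controls, which had 26 nuclei each and wide intervals, and a difference between them was not tested. *Junb* followed with 3, 2, 25 and 8 nuclei and *Atf3* with 0, 0, 17 and 4 nuclei. The log2 fold change was 2.54 ± 0.80 (SE; adjusted p = 0.807) for *Fos* and 2.23 ± 0.83 (adjusted p = 0.807) for *Junb*, and 0.65 and 0.73 without AgRP-Gq;POMC-Gi 1. For *Atf3*, 42 UMIs against 0 in the controls made a level 4.68-fold higher, taking 3 UMIs over the control group as the floor (adjusted p = 0.807, edgeR). Of these UMIs 34 came from AgRP-Gq;POMC-Gi 1, and the 8 of AgRP-Gq;POMC-Gi 2, in 4 nuclei, alone gave 1.45-fold. Neither fold includes the counting error of the AgRP-Gq;POMC-Gi UMIs, so neither is a lower bound. Without the filter on low counts edgeR called *Fos* (adjusted p = 0.000483), *Junb* (0.0476) and *Atf3* (0.000903) in these cells, where that setting called 0.278% of all genes. *Jun* (0.14 ± 0.46), *Jund* (-0.13 ± 0.51) and *Fosl2* (0.16 ± 0.79) in the same nuclei had differences smaller than their errors. Median UMIs of these nuclei were 3430, 2746, 2882 and 3876, median mitochondrial shares 0.309%, 0.971%, 0.634% and 0.468%, and neuronal markers summed to 1373, 2586, 816 and 843 CPM, none of them highest in AgRP-Gq;POMC-Gi 1. Astrocyte markers were higher in both AgRP-Gq;POMC-Gi libraries (1957, 1561, 2676 and 2747 CPM). Markers of Oligodendrocytes/OPC (236, 362, 423 and 310 CPM) and of endothelial cells (20.5, 12.5, 24.3 and 18.4 CPM) were highest in AgRP-Gq;POMC-Gi 1. The marker lists of the other types were not. The part of depth, mitochondrial share or any of these markers in the difference was not tested. In tanycyte-like cluster 61, *Fos* (0, 50.2, 547 and 108 CPM, adjusted p = 0.864) was called without control 1 (adjusted p = 0.0127) or control 2 (adjusted p = 0.000921), fits by edgeR that called 0.998% and 0.699% of all genes in the cluster. Here and below, a group left with 1 library is assumed to vary like the other group. The spread is then taken from the other group and, as in each edgeR fit, drawn toward that of all genes tested. It is therefore mostly not the spread of the gene itself. In the other tanycyte-like cluster, 141, *Fos* had 135, 0, 510 and 59.0 CPM. Its log2 fold change was 1.51, and -0.65 without AgRP-Gq;POMC-Gi 1. Cluster 141 held 16, 6, 13 and 25 of the 26, 26, 67 and 83 tanycyte-like nuclei and all 8 *Fos* UMIs of control 1.

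Ependymal cells, the ciliated lining of the ventricle, showed the same library. *Fos* stood at 7.81, 0, 90.6 and 4.35 CPM and *Junb* at 0, 4.98, 82.4 and 0 CPM. *Fos* UMIs were found in 15 of 90 nuclei of AgRP-Gq;POMC-Gi 1 (16.7%, 9.64 to 26.0) and in 2 of 76, 0 of 64 and 1 of 84 of the others, *Junb* UMIs in 14 nuclei of AgRP-Gq;POMC-Gi 1 and 1 nucleus of the others together. Both rested on that library: the log2 fold changes of 3.37 ± 1.23 for *Fos* and 4.01 ± 1.51 for *Junb* (adjusted p = 0.993 for both) became 0.01 and -2.32 without it, and both were called by edgeR without AgRP-Gq;POMC-Gi 2 (adjusted p = 0.000334 and 0.000167), a fit that leaves the high library alone in its group and called 0.408% of all genes. *Jun* (-0.11 ± 0.56) and *Jund* (-0.05 ± 0.38) did not share the pattern.

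In astrocytes *Fos* stood at 4.11, 3.76, 37.6 and 7.61 CPM and *Junb* at 3.25, 2.51, 15.8 and 5.58 CPM. Both AgRP-Gq;POMC-Gi libraries were above both control libraries, AgRP-Gq;POMC-Gi 1 by far the most. *Fos* UMIs were found in 16, 10, 65 and 24 of 1103, 1084, 1042 and 1149 nuclei, and 2, 1, 26 and 4 of these had more than 1 UMI. *Fos* gave a log2 fold change of 2.55 ± 0.63 (adjusted p = 0.149), *Junb* 1.91 ± 0.51 (0.192), *Jun* 0.81 ± 0.33 (0.514) and *Jund* 0.49 ± 0.17 (0.400), which became 0.90, 0.90, 0.04 and 0.36 without AgRP-Gq;POMC-Gi 1. The edgeR call depended on the libraries: *Fos* passed without control 1 (adjusted p = 4.53e-08), control 2 (2.18e-08) or AgRP-Gq;POMC-Gi 2 (0.000568), as did *Junb* (0.0106, 0.0275 and 0.0180), *Jun* passed without control 2 (0.0402) or AgRP-Gq;POMC-Gi 2 (0.0230), and none passed without AgRP-Gq;POMC-Gi 1. The fits without control 1, control 2 and AgRP-Gq;POMC-Gi 2 called 0.494%, 0.903% and 0.552% of all genes in astrocytes. Without the filter on low counts all 3 passed (5.69e-17 for *Fos*, 1.57e-05 for *Junb* and 0.00929 for *Jun*), as did 1.32% of all genes. Thinned to 800 UMIs, 0.363%, 0.0923%, 3.07% and 0.609% of nuclei had a *Fos* UMI. Neuronal markers in these nuclei summed to 397, 605, 358 and 560 CPM and were lowest in AgRP-Gq;POMC-Gi 1.

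Among the 11 astrocyte clusters *Fos* was highest in AgRP-Gq;POMC-Gi 1 in 10, *Junb* in 8, *Jun* in 7 and *Jund* in 6. Over astrocytes as a whole, 13.7% of all genes tested were highest in that library. In this and later paragraphs clusters are parts of the same 4 libraries and add no replicates. The share of all genes highest in a library was not drawn per cluster. In cluster 54, *Fos* had 0, 0, 29 and 4 UMIs in 0 of 24, 0 of 38, 11 of 37 and 1 of 50 nuclei. It rose there (adjusted p = 6e-05, edgeR), the 1 pair that passed of 75 tested over 36 clusters, at a background of 0.442% of genes in that cluster and 0.159% over all 43 clusters tested. With 3 UMIs over the control group as the floor, the level was 7.81-fold higher. For AgRP-Gq;POMC-Gi 2 alone it was 1.52-fold, on 4 UMIs in 1 nucleus. These folds leave out the counting error of the AgRP-Gq;POMC-Gi UMIs and are no lower bounds. The call was lost without AgRP-Gq;POMC-Gi 1 (adjusted p = 0.862), control 1 (0.904) or control 2 (0.935). The fitted log2 fold change, which depends on the prior count because both controls had 0 UMIs, was 7.01 with all libraries, 7.16 and 7.001 without control 1 and control 2, and 4.57 without AgRP-Gq;POMC-Gi 1. The adjusted p by edgeR was 7.91e-09 without AgRP-Gq;POMC-Gi 2, where again 0.442% of genes were called. Cluster 48 had 43.5, 68.7, 282 and 46.7 CPM and cluster 20 had 4.98, 6.62, 90.7 and 11.2 CPM (adjusted p = 0.953 and 0.330), and without TMM factors cluster 20 was called by edgeR (adjusted p = 0.0121, with 0.513% of all genes). Clusters 20, 48 and 54, singled out after their values had been seen, held 8, 9, 93 and 19 of the 19, 15, 126 and 30 *Fos* UMIs of astrocytes and 11.4%, 15.1%, 21.4% and 25.7% of astrocyte nuclei. They took a larger share of nuclei in both AgRP-Gq;POMC-Gi libraries. In the remaining 8 clusters together *Fos* still stood at 2.62, 1.72, 12.0 and 3.58 CPM.

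**Figure D3:**
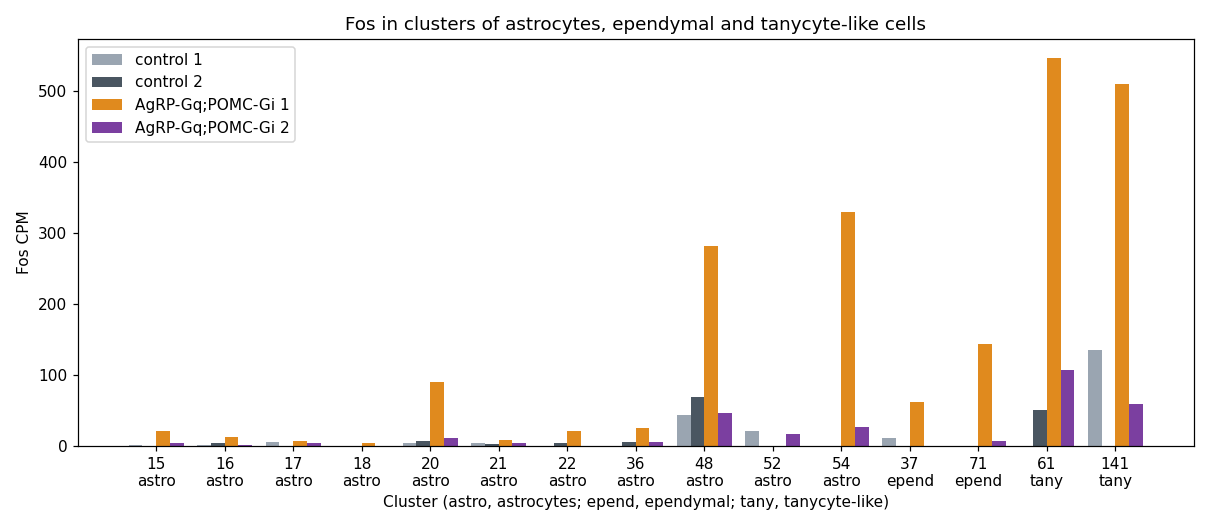
*Fos* level in CPM for each library (bars) in the 11 astrocyte, 2 ependymal and 2 tanycyte-like clusters. AgRP-Gq;POMC-Gi 1 has the highest bar in each cluster but astrocyte cluster 52, reaching 331 CPM in cluster 54 and 547 CPM in tanycyte-like cluster 61.

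In microglia *Jun* and *Junb* were higher in both AgRP-Gq;POMC-Gi libraries. *Jun* had 19.2, 30.5, 47.2 and 56.9 CPM and *Junb* 47.97, 68.5, 158 and 89.8 CPM, without overlap of the groups. The log2 fold changes were 1.07 ± 0.38 (adjusted p = 0.952) and 1.09 ± 0.32 (adjusted p = 0.911), and 1.16 and 0.60 without AgRP-Gq;POMC-Gi 1. *Jund*, at 32.6, 41.9, 35.4 and 63.5 CPM, overlapped between the groups (0.42 ± 0.37, adjusted p = 0.962), and *Fos* was rare, with 1, 1, 4 and 2 UMIs. Neuronal markers in these nuclei were higher in both AgRP-Gq;POMC-Gi libraries as well, at 629, 556, 1038 and 749 CPM, and their part in the difference was not tested.

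In the oligodendrocyte lineage *Jun* was higher in both AgRP-Gq;POMC-Gi libraries, as was the rarer *Fos* in oligodendrocytes. For *Jun*, OPC had 37.2, 38.8, 79.9 and 43.6 CPM and oligodendrocytes 21.4, 26.6, 40.2 and 28.8 CPM, and in both types AgRP-Gq;POMC-Gi 1 was well above the rest while AgRP-Gq;POMC-Gi 2 lay just above the controls. The log2 fold changes were 0.74 ± 0.30 (adjusted p = 0.702) and 0.60 ± 0.21 (adjusted p = 0.508), and 0.19 and 0.24 without AgRP-Gq;POMC-Gi 1. In oligodendrocytes edgeR called *Jun* without AgRP-Gq;POMC-Gi 2 (adjusted p = 0.000193) or without the filter on low counts (0.0109), settings that called 9.73% and 1.47% of all genes there. In the small type labelled Oligodendrocytes/OPC (123 nuclei) *Jun* had 2, 5, 11 and 8 UMIs, or 28.8, 41.3, 63.5 and 66.2 CPM. AgRP-Gq;POMC-Gi 2 was the highest (0.89 ± 0.62, adjusted p = 0.999 by edgeR, and 0.94 without AgRP-Gq;POMC-Gi 1). Libraries drew this type from different clusters: cluster 138 held 0, 27, 32 and 2 of the 16, 36, 52 and 19 nuclei. The part of this in the difference was not tested. Of the 13 oligodendrocyte clusters, *Jun* was highest in AgRP-Gq;POMC-Gi 1 in 9, where 15.6% of all genes tested in oligodendrocytes as a whole had that library highest. In cluster 2 both AgRP-Gq;POMC-Gi libraries were alike, with 10.4, 13.5, 29.6 and 31.9 CPM (log2 fold change 1.43 ± 0.30, adjusted p = 0.0623), a difference that edgeR called without AgRP-Gq;POMC-Gi 1 (0.0150) or AgRP-Gq;POMC-Gi 2 (0.00526) and not without control 1 (0.594) or control 2 (0.0736), although the log2 fold change was 1.25 and 1.62 in those fits. The first pair of fits called 1.59% and 3.76% of all genes in the cluster. *Fos* in oligodendrocytes, at 1.33, 0.92, 2.63 and 2.37 CPM, had a log2 fold change of 1.19 ± 0.38 (adjusted p = 0.436) that was 1.02 without AgRP-Gq;POMC-Gi 1.

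In endothelial cells the highest values were in the other AgRP-Gq;POMC-Gi library. *Jun* had 136, 93.0, 128 and 204 CPM, *Jund* 128, 86.0, 93.2 and 187 CPM and *Atf3* 2.73, 2.33, 5.82 and 35.0 CPM, each highest in AgRP-Gq;POMC-Gi 2. The log2 fold changes were 0.57 ± 0.30 for *Jun* (adjusted p = 0.963, edgeR) and 0.45 ± 0.33 for *Jund* (0.979). With 1 library left out they ran from 0.18 to 0.88 and from -0.17 to 0.77. *Atf3* had 1, 1, 1 and 12 UMIs and was too rare to test. *Junb*, at 54.5, 39.5, 87.4 and 102 CPM, was, like *Atf3*, above both controls in both AgRP-Gq;POMC-Gi libraries (1.01 ± 0.35, adjusted p = 0.704), and *Fos* had 3, 3, 1 and 3 UMIs. Of the 5 endothelial clusters with 5 nuclei in each library, *Jun* and *Atf3* were highest in AgRP-Gq;POMC-Gi 2 in 4 each, and *Jund* in 2, with AgRP-Gq;POMC-Gi 1 the highest in the other 3. The share of all genes highest in AgRP-Gq;POMC-Gi 2 was not drawn, so these counts lack a background. Heat shock genes in these cells summed to 2499, 2409, 2364 and 3565 CPM and were highest in the same library.

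In fibroblasts *Fosl2* and *Jund* were lower in both AgRP-Gq;POMC-Gi libraries. *Fosl2* had 6, 18, 2 and 4 UMIs, or 33.4, 17.2, 4.52 and 9.76 CPM (log2 fold change -1.53 ± 0.67, adjusted p = 1.00), and *Jund* 83.4, 84.0, 58.7 and 63.5 CPM (-0.42 ± 0.28, adjusted p = 1.00). With *Jun* in neurons these were the 3 pairs in which both AgRP-Gq;POMC-Gi libraries were below both control libraries. Libraries drew fibroblasts from different clusters: cluster 44 held 55, 59, 20 and 28 of the 72, 391, 186 and 170 nuclei and cluster 69 held 1, 65, 52 and 13. The part of this in the difference was not tested. *Jun* in fibroblasts, at 11.1, 70.6, 20.3 and 53.7 CPM, overlapped between the groups.

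In neurons, the reference, AgRP-Gq;POMC-Gi 1 was not the highest library for *Fos* or the Jun genes. *Fos* had 5.70, 5.18, 5.26 and 8.28 CPM, *Jun* 10.5, 10.2, 8.12 and 9.95 CPM, *Junb* 9.87, 8.90, 7.59 and 10.6 CPM and *Jund* 19.5, 22.9, 15.8 and 22.9 CPM. AgRP-Gq;POMC-Gi 1 was the lowest of the 4 libraries for *Jun*, *Junb* and *Jund*. Their log2 fold changes were 0.37 ± 0.21 for *Fos*, -0.14 ± 0.13 for *Jun*, 0.01 ± 0.16 for *Junb* and -0.07 ± 0.15 for *Jund*, and *Atf3*, with 7, 4, 16 and 20 UMIs, had 1.37 ± 0.48 (adjusted p = 0.847), and *Fosb* 0.64 ± 0.30 (adjusted p = 0.847). *Fosl2*, at 2.12, 1.64, 1.46 and 3.32 CPM, had 0.39 ± 0.36 (adjusted p = 0.868, edgeR). Without AgRP-Gq;POMC-Gi 1 the values were 0.62 for *Fos*, -0.05 for *Jun*, 0.18 for *Junb* and 0.13 for *Jund*. They were 1.48 for *Atf3*, 0.56 for *Fosb* and 0.83 for *Fosl2*. *Atf3* and *Fosb* were above both controls in both AgRP-Gq;POMC-Gi libraries. The difference between the change in a type and that in neurons was fitted with the library as a block for 36 pairs over 10 types. None passed adjustment (background 0.0844%), and 14 had an unadjusted p under 0.05 (background 5.98%), 13 of them positive. The largest positive values among these 14 were *Junb* in ependymal cells (4.19 ± 1.58 on the log2 scale, adjusted p = 1.00), *Fos* in ependymal cells (3.08 ± 1.32, adjusted p = 1.00), *Junb* in tanycyte-like cells (2.10 ± 0.97, adjusted p = 0.928), *Fos* in astrocytes (2.06 ± 0.80, adjusted p = 0.558) and *Junb* in astrocytes (1.86 ± 0.59, adjusted p = 0.408), and the negative one was *Fosl2* in fibroblasts (-2.07 ± 0.75, adjusted p = 1.00). *Fos* in tanycyte-like cells, at 1.88 ± 1.002 (unadjusted p = 0.0812, adjusted p = 0.928, edgeR), was not among them, and neither was *Atf3* there, which had no UMI in the controls. A change in glia that differs from that in neurons was thus not established for any member with 2 libraries per group.

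Whether members were found in the same nuclei was described by odds ratios within each library, pooled over 10 classes of UMIs per nucleus. In neurons a nucleus with *Fos* was more often one with *Junb* in each library (odds ratios 3.84, 3.13, 4.00 and 5.39, with 24, 21, 26 and 60 nuclei having both). The ratios were larger for *Fos* with *Fosl2* (9.10, 10.9, 19.5 and 12.8) and with *Fosb* (17.3, 15.0, 48.004 and 18.3), and smaller for *Fos* with *Jun* (1.29, 1.66, 2.40 and 1.42) and *Jun* with *Junb* (1.17, 0.70, 1.23 and 1.22). With clusters as further strata they were 4.56, 13.4, 6.85 and 8.24 for *Fos* with *Fosl2*, and 9.43, 38.5 and 11.95 for *Fos* with *Fosb* in all but control 2, where no ratio could be formed. Some of these moved by more than 1.5 times. In each library the ratio of *Fos* with *Fosl2*, *Fosb* or *Junb*, where one could be formed, was thus above that of *Fos* with *Jun*, a comparison that was not tested. In astrocytes *Fos* and *Jun* went together in 4 of 4 libraries (4.61, 3.76, 2.47 and 1.60) but on only 3, 2, 13 and 2 nuclei. *Jun* and *Jund* in oligodendrocytes were near 1 (1.40, 0.995, 1.03 and 1.00). Of 18 combinations of a pair and a type with at least 20 nuclei having both, 9 were above 1 in all 4 libraries.

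Over 46 sums of a library and type with at least 20 nuclei, the levels of the members on the log2(CPM + 1) scale were most alike for *Fosl2* and *Junb* (Pearson's r = 0.729) and *Junb* and *Atf3* (0.681), and least for *Fosb* and *Jund* (0.122). The genes outside the family with the most similar pattern were taken from 15582 with at least 10 CPM in a type. For *Fos* they were *Abcc12* (0.747), *Hopxos* (0.745) and *Palld* (0.726). For *Fosl2* they included *Rheb* (0.694) and *Coq10b* (0.693), and for *Fosb* they were *Pmvk* (0.581), *Emd* (0.564) and *Hopxos* (0.523). For *Jun* they were *Actg1* (0.769), *Nes* (0.690) and *Irf2bpl* (0.643), for *Junb* *Atxn7* (0.735), *Btg2* (0.722) and *Ubtf* (0.711), and for *Jund* *Vdac3* (0.826), *Ahsa2* (0.814) and *Ube2v1* (0.813). For *Atf3* they were *Btg2* (0.687), *Emd* (0.660) and *Nkapl* (0.651). *Btg2*, an early-response gene that slows proliferation, was near the top for both *Junb* and *Atf3*. The sums share libraries and differ in depth, so these values are a description.

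Other genes of the pathway were read from 4 lists. Of 13 further AP-1 bZIP genes, among them *Atf2*, *Atf7* and the Maf genes, 2 to 12 were tested per type, and 0 passed in any type in either direction with edgeR; at an unadjusted p under 0.05 in astrocytes 1 was higher and 0 lower, where 4.17% of all genes tested were higher and 4.08% lower. Their summed level in astrocytes was 450, 417, 441 and 460 CPM and so nearly equal between libraries, unlike *Fos*. Of 17 kinases and factors upstream of AP-1, 4 to 17 were tested per type and 0 passed; in astrocytes 1 was higher and 2 lower at an unadjusted p under 0.05, and their sum was 1239.5, 1295, 1274 and 1294 CPM. Neither sum had the pattern of *Fos* in that type, but a sum mostly follows its most abundant genes. By gene, AgRP-Gq;POMC-Gi 1 was the highest library for 2 of the 9 and 4 of the 17 tested in astrocytes, against 13.7% of all genes tested.

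Of 26 early-response genes outside AP-1, 20 were tested in astrocytes, 9 in tanycyte-like and 8 in ependymal cells, and 0 passed there with edgeR; 5, 3 and 4 were higher and 2, 1 and 0 lower at an unadjusted p under 0.05. Beside the astrocyte shares above, 3.17% of all genes tested were higher and 2.85% lower in tanycyte-like cells, and 1.97% and 2.19% in ependymal cells. AgRP-Gq;POMC-Gi 1 was the highest library for 9, 8 and 7 of them, where 13.7%, 13.6% and 20.5% of all tested genes had it highest. In tanycyte-like cells their sum was 502, 437, 1637 and 509 CPM, and *Btg2* had 51.2, 74.9, 534 and 104 CPM. In ependymal cells the sum was 250, 294, 832 and 291 CPM, and *Nr4a1*, an orphan nuclear receptor induced by many stimuli, had 3.90, 4.98, 173 and 0 CPM. In OPC the sum was 169, 188, 354 and 177 CPM. In tanycyte-like, ependymal and OPC nuclei the sum was thus highest in AgRP-Gq;POMC-Gi 1. In astrocytes it was 275, 264, 317 and 211 CPM, highest in the same library by little, with a median log2 fold change of 0.05 over the 20 genes against -0.01 over all genes. In neurons the list summed to 109, 107, 95.4 and 124 CPM. Over all types 1 gene of this list passed: *Nfkbia*, the NF-kappaB inhibitor, fell in oligodendrocytes (67.0, 73.9, 34.2 and 30.3 CPM; log2 fold change -1.06 ± 0.14, adjusted p = 0.0270; background 0.169% of genes in that type). Both AgRP-Gq;POMC-Gi libraries were below both control libraries.

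The 10 heat shock genes, which encode chaperones induced by protein stress, had their lowest sum in AgRP-Gq;POMC-Gi 1 in each type but mural cells. They summed to 807, 864, 474 and 801 CPM in neurons, 859, 977, 644 and 989 CPM in astrocytes and 1329, 1420, 807 and 1451 CPM in oligodendrocytes, and 0 of the 3 to 10 genes tested per type passed with edgeR, among them 1 lower in astrocytes and 0 in neurons and oligodendrocytes at an unadjusted p under 0.05. In endothelial cells, where that library was close to the controls, 4 of 10 were higher at an unadjusted p under 0.05 (background 2.26%), and in mural cells, with sums of 1664.5, 1793, 1670 and 2326 CPM, 3 of 8 were (background 3.2%). The median mitochondrial share was also lowest in that library, at 0.202%, 0.260%, 0.120% and 0.187% over all nuclei. The part of either in the differences of the AP-1 genes was not tested.

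**Figure D4:**
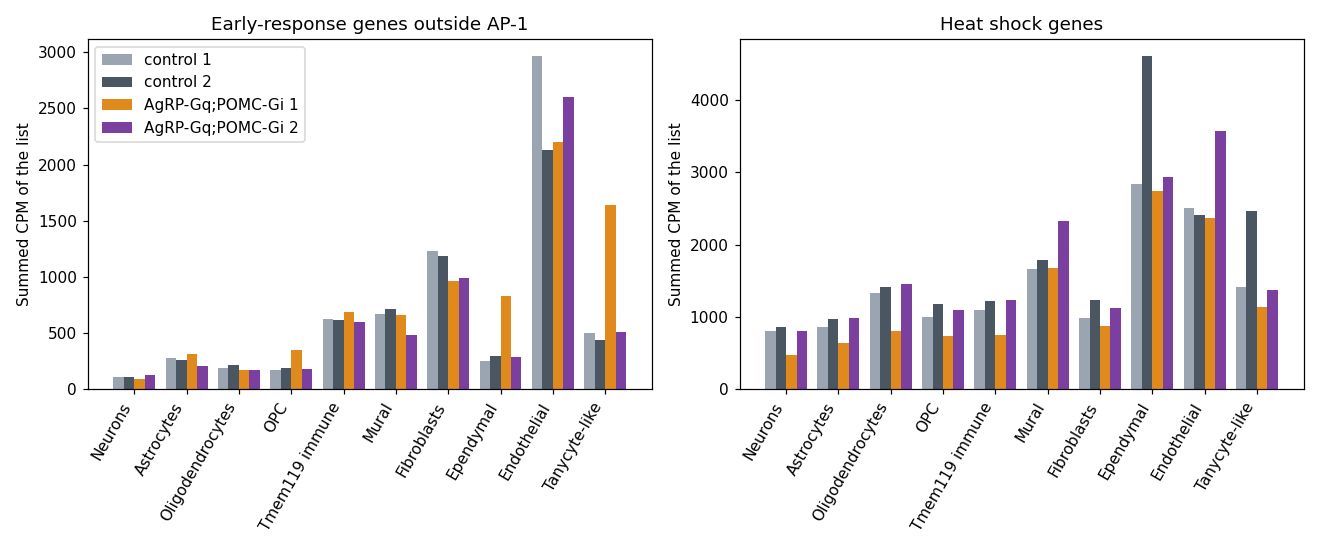
Summed CPM of 26 early-response genes outside AP-1 (left) and of 10 heat shock genes (right) in 10 cell types, with 1 bar per library. The early-response sum of AgRP-Gq;POMC-Gi 1 is above the others in tanycyte-like and ependymal cells, and its heat shock sum is the lowest in neurons, astrocytes and oligodendrocytes.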

How the data were processed

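Nuclei were profiled in 4 libraries with the 10x Genomics 3′ kit. Per the labels, the authors mapped reads to GRCm38 (mm10) with Cell Ranger 7.0.0 and deposited UMI counts per gene and barcode; with Seurat 4.3.0, by the methods, they kept nuclei with at least 800 UMIs, 500 genes and at most 10% mitochondrial RNA and searched for doublets, and their table of 39461 kept nuclei gave clusters and cell types. The percent of mitochondrial UMIs per nucleus was computed by the authors. No kept nucleus failed this filter. UMIs were summed per library and type or cluster and divided by all UMIs of those nuclei (CPM). The choice of members, lists and tests was made with earlier results of these data known. All 7 members were described in each type. For likeness, the 3 genes with the highest r per member were named, except 1 gene that is not reported here. Of the other lists, values were given for genes that passed the test and those among the 3 with the highest mean CPM in the type described.

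Groups were compared with edgeR 4.0.16 (quasi-likelihood, TMM, at least 20 UMIs, 5 nuclei in each library) in R 4.3.3, tested on simulated data. Alternatives were DESeq2 1.42.0, no TMM factors, other filters, a block on replicate numbers, and fits with 1 library omitted. Likeness used a pseudocount of 1 CPM. The authors' cluster score of immediate early genes and their joined matrix were not used. Tables were made in Python with numpy, pandas and scipy.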

Additional observations from a re-analysis of the deposited data

How the results depend on the processing

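The replicate numbers are not said to mark a shared batch, and deviations of same-numbered libraries from their group mean correlated at 0.086 in neurons, 0.245 in oligodendrocytes and 0.222 in astrocytes, over 2 pairs. With the replicate block, 3 pairs of a member and a cell type (*Fos*, *Junb* and *Jun* in astrocytes; adjusted p = 6.49e-12, 6.32e-05 and 0.0109) were called in place of 0, 4 pairs of a member and a cluster in place of 1 (*Fos* in clusters 20 and 54, adjusted p = 0.0220 and 0.000116, and *Jun* in clusters 1 and 17, 0.0135 and 0.0259), and 773 genes over the 13 types in place of 122. Without a filter, 7 of 83 pairs and 917 genes were called, from more genes than in the main fit. With DESeq2, 0 of the 37 pairs that got an adjusted p and 189 genes were called. Adjusted over all types together the counts were 0 and 56, and without TMM factors 2 pairs of a member and a cluster were called. Fits with 1 library left out tested the same 43 pairs as the main fit. The main fit called 122 of 127445 pairs of a gene and a type (0.0957%). Over all 13 types this share was not drawn for the other edgeR settings. Leaving out 1 library gave 0 to 6 pairs by type, 1 to 6 by cluster and 240 to 3992 genes. By type, 0 pairs were called without AgRP-Gq;POMC-Gi replicate 1, and 6 pairs and 3992 genes without replicate 2. The cause was not tested. Over all clusters together the share of genes called was drawn only for the main fit (0.159%), so the cluster counts under other settings lack a background. *Junb* in ependymal cells ran from -2.32 without AgRP-Gq;POMC-Gi replicate 1, a reversed direction, to 6.39 without control replicate 2. Of the other single values, 129 kept direction and call, 21 gained a call and 3 lost it, the last all for *Fos* in cluster 54. The highest cell type was unchanged for 5 or 6 of the 7 members under other scalings, thinning or 1 library left out. The 9 pairs found together in all libraries were 7 with clusters as strata and 11 with none. With clusters as strata, *Jun* with *Fosl2* in neurons fell to 0.75 in control 2. *Fos* with *Fosb* in neurons was not counted only because no ratio could be formed in control 2. *Atf3*, *Fosb* and *Fosl2* had too few UMIs for a test in most types, so their differences there were not detectable at this depth.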
